A study of Homo sapiens with 6 samples.

Results

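AMP-activated protein kinase (AMPK) and its activating kinases were followed through 10 genes, taken by symbol from the 58243 gene identifiers listed in each library. The genes encode the catalytic alpha subunits (PRKAA1 and PRKAA2), the scaffolding beta subunits (PRKAB1 and PRKAB2), the nucleotide-binding gamma subunits (PRKAG1, PRKAG2 and PRKAG3), the kinase LKB1 (STK11) and the calcium-calmodulin-dependent kinase kinases CAMKK1 and CAMKK2. All 10 were listed in the files. The RNA came from CAL27, an established human tongue squamous carcinoma line, grown in high-glucose medium with serum. In the metformin group the medium held 30 mM metformin for 48 h, and in the PBS group only the phosphate-buffered saline vehicle for the same time, with 3 mRNA sequencing libraries in each. A single line and a single dose were studied.

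AMPK is a heterotrimer that is switched on when AMP and ADP rise relative to ATP. The gamma subunit binds the nucleotides, the beta subunit holds the complex together and can bind glycogen, and the alpha subunit carries the kinase domain. LKB1, bound to STRAD and MO25 proteins, phosphorylates the activation loop of alpha, and CAMKK2 can do so when calcium rises. Metformin inhibits respiratory complex I and is known as an indirect activator of AMPK. That activation is by phosphorylation, so transcript levels report how much of each subunit RNA is present, not how active the kinase is.

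Levels are the FPKM that the authors deposited, a count of fragments scaled to gene length and to library size, and each library held an estimated 7810000 to 8820000 counted fragments, read from the spacing of low values. The line carried its squamous label, as all 10 fixed squamous epithelial markers reached 1 FPKM. Their summed level was 551 to 571 FPKM with metformin and 1189 to 1252 FPKM with PBS, but the markers split. KRT5 averaged 52.4 FPKM with metformin and 355 FPKM with PBS, and KRT14 12.9 and 246 FPKM. CDH1 and EPCAM alone had higher means with metformin, at 61.0 against 51.5 FPKM and 130 against 103 FPKM. Of 20 markers of fibroblasts, endothelium, leucocytes and skeletal muscle, 3 reached 1 FPKM (COL1A1, CDH5 and CD68) and 5 were listed at 0 in every library (DCN, KDR, MYH2, MYH7 and DES). The summed muscle markers were 0.0758 to 0.303 FPKM with metformin and 0 to 0.257 FPKM with PBS. CDH5, an endothelial cadherin, averaged 2.03 FPKM with metformin and 6.17 FPKM with PBS, and its part in the results was not tested. Because cells were pooled in each library, fewer cells with a transcript and less of it per cell cannot be told apart. Whether the 3 libraries of a group were separate cultures is not stated in the labels, and the p-values therefore cover the spread among these libraries alone, possibly technical.

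With metformin, transcripts of both beta subunits and of gamma2 were higher, led by PRKAB2, and transcripts of alpha1 and of CAMKK1 were lower. Of the 10 genes, 8 averaged at least 1 FPKM over the 6 libraries and were tested in a fit across 13437 genes. Of these 8, limma with Benjamini-Hochberg adjustment called 3 higher (PRKAB2, PRKAB1 and PRKAG2) and 2 lower (PRKAA1 and CAMKK1) at an adjusted p below 0.05, and 3 (PRKAG1, STK11 and CAMKK2) did not pass. Over all tested genes 56.2% were called, 31.0% higher and 25.2% lower, so 5 of 8 is close to the share that changed throughout these cells. The excess of higher over lower calls among all genes depended on scaling: 4169 were higher and 3380 lower as deposited, against 3595 higher and 3867 lower after median-of-ratios scaling and 3642 higher and 3802 lower after quantile normalization. Metformin and PBS libraries were fully apart in the same 5 genes, 3 with metformin above and 2 below, against 64.4% of all tested genes (35.7% above and 28.7% below). PRKAB2 stood out by size: its log2 change was larger than that of 92.2% of the tested genes, against 77.2% for CAMKK1, 61.0% for PRKAB1, 55.8% for PRKAA1 and 53.9% for PRKAG2.

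**Figure D1:**
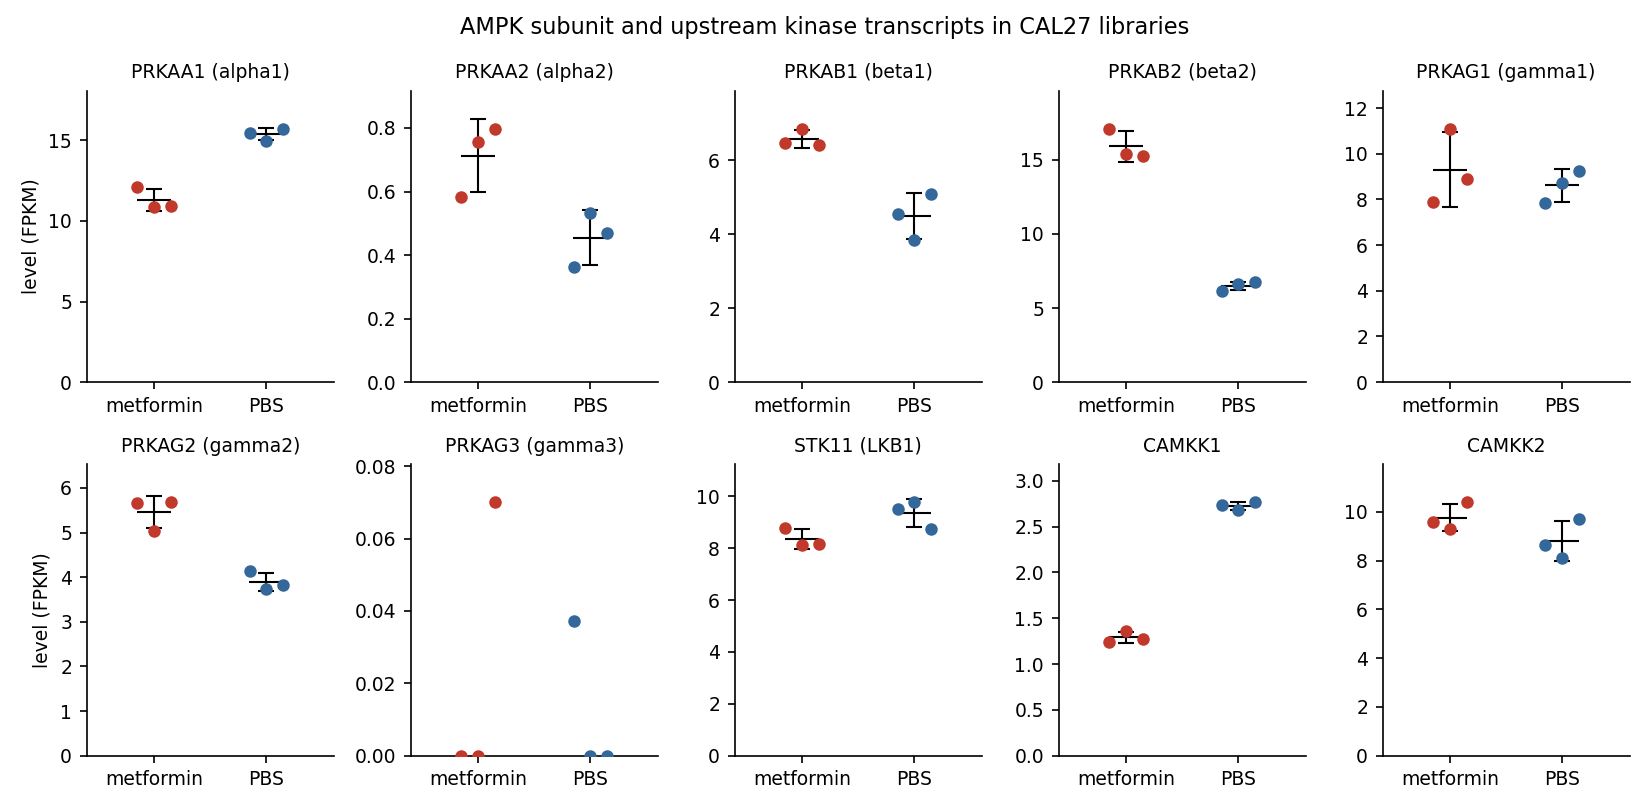
Level of each gene in FPKM (linear axes from 0, a scale per gene) in the 3 metformin and 3 PBS libraries; points are libraries, and black bars are the mean and SD (none for PRKAG3, which was listed at 0 in 4 libraries). PRKAB2 lay between 15.2 and 17.1 FPKM with metformin and between 6.18 and 6.73 FPKM with PBS, and CAMKK1 between 1.24 and 1.36 FPKM against 2.69 to 2.77 FPKM.

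Transcript of the catalytic subunit was almost wholly that of alpha1. PRKAA1 (ENSG00000132356.11, chromosome 5, 40759379 to 40798374 on the minus strand, GRCh38), which encodes alpha1, had 12.1, 10.9 and 10.9 FPKM in the metformin libraries and 15.5, 14.95 and 15.7 FPKM in the PBS libraries. Every metformin library lay below every PBS library. Its mean was 11.3 ± 0.707 FPKM with metformin and 15.4 ± 0.391 FPKM with PBS (SD, n = 3 each), 1.36-fold lower with metformin. The log2 change, which is metformin minus PBS of log2(FPKM + 1), was -0.42 (SE 0.06, 95% interval -0.57 to -0.26, limma adjusted p = 0.00161). That scale is used for every log2 change here and understates the change of genes with low levels.

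PRKAA2 (ENSG00000162409.10, chromosome 1, 56645322 to 56715335, plus strand), which encodes alpha2, the form best known from skeletal and heart muscle, was scarce. It had 0.583, 0.757 and 0.798 FPKM with metformin and 0.364, 0.534 and 0.468 FPKM with PBS, from an estimated 27.8 to 63.9 fragments per library. The groups did not overlap, with metformin above PBS, but the gene lay under the level filter. When the filter was lowered to a mean of 0.1 FPKM its log2 change was 0.23 and did not pass (limma adjusted p = 0.105). Alpha1 made up 94.0 ± 1.21% of alpha transcript with metformin and 97.1 ± 0.573% with PBS (SD, n = 3 each), as a share of the FPKM of the isoform pair. The 3 metformin libraries all lay below the PBS libraries, a difference of -3.10 percentage points (two-sided exact permutation p = 0.1, the smallest that 3 libraries against 3 can give).

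The reading frames of the isoform pairs are alike in part, so the longest identical stretches show how far reads of 1 isoform could match the other. Coding sequences of the principal GENCODE 29 transcripts, of 559 codons for PRKAA1 and 552 for PRKAA2, were identical at 71.8% of aligned bases. The longest runs shared by the alpha pair, the beta pair and the CAMKK pair are shown in lower case, 5′ to 3′:
PRKAA1 and PRKAA2: gtcggcaccttcggcaaagtgaag
PRKAB1 and PRKAB2: tacaagttctttgtggatgg
CAMKK1 and CAMKK2: ggctttccacgtcgccctcc
The alpha run, of 24 bases, starts at coding base 103 of PRKAA1 and 70 of PRKAA2, in the part that encodes the ATP-binding loop of the kinase domain. The beta run and the CAMKK run are 20 bases each, and within the gamma family the longest run was 17 bases (PRKAG1 and PRKAG3). All are shorter than the 75-base windows in which the transcripts were searched for shared sequence. CAMKK1 shared 3 such windows with transcripts of PSME3 and the same number with ZNF101, and no other member shared a window of that length with an annotated transcript of a gene outside the 10. PSME3 averaged 18.5 FPKM with metformin and 21.3 FPKM with PBS, and ZNF101 averaged 1.18 FPKM over the 6 libraries.

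The beta subunits gave the largest change. PRKAB2 (ENSG00000131791.7, chromosome 1, 147155106 to 147172550, minus strand), which encodes beta2, had 17.1, 15.4 and 15.2 FPKM with metformin and 6.18, 6.59 and 6.73 FPKM with PBS. The lowest metformin library was above the highest PBS library by more than the range within either group. The means were 15.9 ± 1.04 FPKM and 6.50 ± 0.286 FPKM (SD, n = 3 each), a 2.45-fold rise with metformin, and the log2 change was 1.17 (SE 0.07, 95% interval 1.00 to 1.34, limma adjusted p = 2.76e-05).

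PRKAB1 (ENSG00000111725.10, chromosome 12, 119667753 to 119681630, plus strand), which encodes beta1, had 6.47, 6.86 and 6.42 FPKM with metformin and 4.53, 3.84 and 5.09 FPKM with PBS. The groups did not overlap, and the PBS libraries were the more scattered. The means, 6.58 ± 0.240 FPKM with metformin and 4.49 ± 0.627 FPKM with PBS (SD, n = 3 each), gave a 1.47-fold rise, or 0.47 on the log2 scale (SE 0.10, limma adjusted p = 0.00587). PRKAB1 shares 137 exon bases with the gene AC002070.1 on the opposite strand, which averaged 1.79 FPKM with metformin and 0.648 FPKM with PBS, and no source used here states whether counting used strand.

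The balance of the beta isoforms moved toward beta2. Beta1 made up 27.4, 30.9 and 29.6% of beta transcript in the metformin libraries and 42.3, 36.8 and 43.1% in the PBS libraries. The groups did not overlap, with means of 29.3 ± 1.74% and 40.7 ± 3.43% (SD, n = 3 each) and a difference of -11.4 percentage points (two-sided exact permutation p = 0.1, the smallest possible). The same change expressed as a ratio was 2.42 ± 0.207 PRKAB2 per PRKAB1 FPKM with metformin and 1.47 ± 0.218 with PBS.

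**Figure D2:**
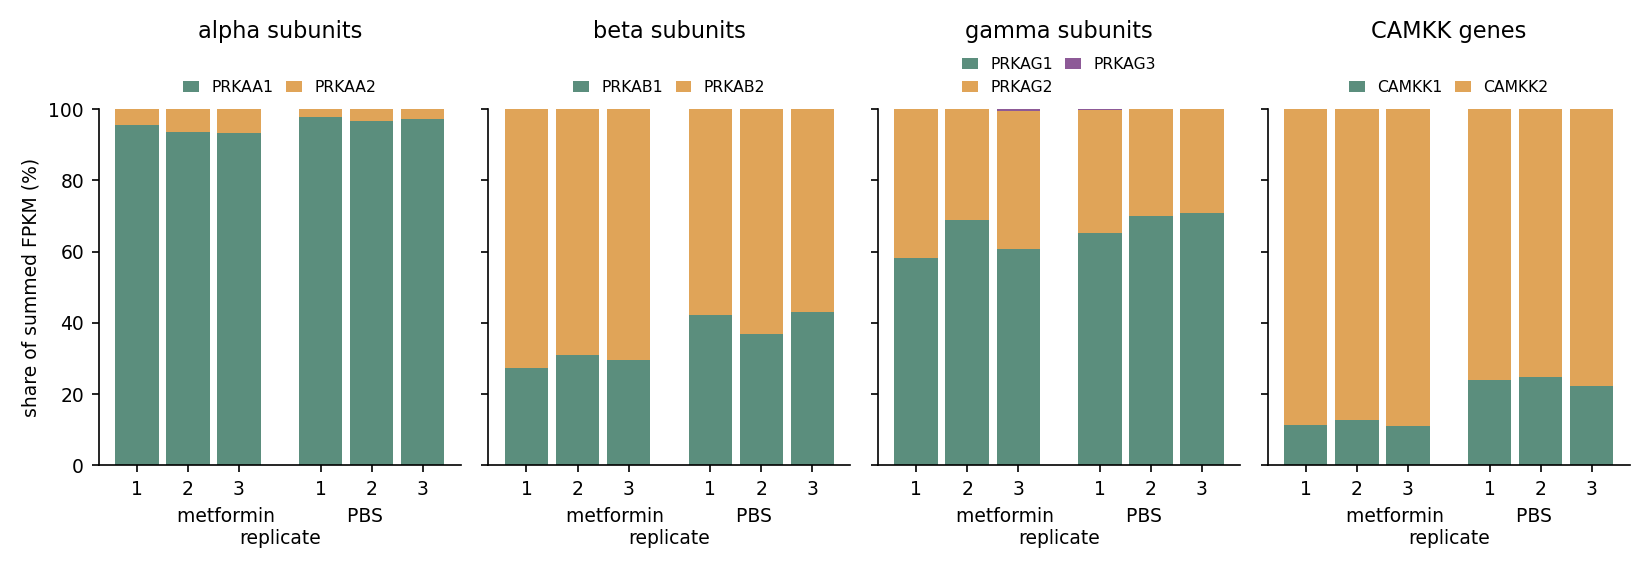
Share of each isoform gene in the summed FPKM of its class (percent, stacked bars from 0 to 100) in each library, metformin libraries on the left of each panel. Beta1 takes 27.4 to 30.9% of beta transcript with metformin and 36.8 to 43.1% with PBS, and CAMKK2 takes 87.3 to 89.1% of CAMKK transcript with metformin and 75.1 to 77.8% with PBS.

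The promoters of PRKAB2 and PRKAB1, both higher with metformin but by unlike amounts, and of PRKAA1, which was lower, are printed from RefSeq (GRCh38.p14), from 250 bases before to 50 after the annotated start and read 5′ to 3′ on the gene's strand. Capitals mark matches on either strand to 6 short motifs: the GC box (GGGCGG), the CCAAT box (CCAAT), the E-box (CACGTG), the cAMP response element (TGACGTCA), the CHOP-ATF composite site (TGATGCAA) and the ETS core (CCGGAAG), with overlapping matches run together.
PRKAB2, chr1:147172421-147172720, minus strand: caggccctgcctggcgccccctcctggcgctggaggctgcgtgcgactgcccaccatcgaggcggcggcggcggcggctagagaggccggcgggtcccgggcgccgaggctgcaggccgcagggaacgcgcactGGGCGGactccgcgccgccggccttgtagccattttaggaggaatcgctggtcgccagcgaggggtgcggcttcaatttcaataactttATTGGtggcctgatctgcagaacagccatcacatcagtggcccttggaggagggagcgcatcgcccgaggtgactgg
PRKAB1, chr12:119667883-119668182, plus strand: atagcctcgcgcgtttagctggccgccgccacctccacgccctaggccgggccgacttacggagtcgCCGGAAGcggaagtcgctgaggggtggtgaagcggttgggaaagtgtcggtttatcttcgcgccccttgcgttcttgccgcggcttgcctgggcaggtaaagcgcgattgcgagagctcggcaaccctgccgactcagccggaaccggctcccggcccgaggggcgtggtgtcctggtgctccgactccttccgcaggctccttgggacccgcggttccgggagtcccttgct
PRKAA1, chr5:40798128-40798427, minus strand: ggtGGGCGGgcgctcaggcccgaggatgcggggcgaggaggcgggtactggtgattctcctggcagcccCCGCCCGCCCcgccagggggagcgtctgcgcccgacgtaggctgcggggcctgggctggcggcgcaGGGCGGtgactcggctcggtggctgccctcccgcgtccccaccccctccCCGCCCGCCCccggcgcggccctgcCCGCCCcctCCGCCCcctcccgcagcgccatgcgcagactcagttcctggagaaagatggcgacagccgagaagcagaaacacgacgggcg
The PRKAB2 window held 1 GC box and 1 CCAAT box, the PRKAB1 window 1 ETS core and no GC box, and the PRKAA1 window 8 GC boxes and no CCAAT box. Among 35116 RefSeq promoter windows of this length, 45.0% held a GC box, 34.6% a CCAAT box and 10.3% an ETS core. The E-box, held by 7.26% of all windows, the cAMP response element (1.85%) and the CHOP-ATF composite letters (0.866%) had no match in the 15 windows annotated for the 10 genes. The GC content was 68.7% for PRKAB2, 67.7% for PRKAB1 and 77.0% for PRKAA1, against a median of 58.7% over all windows. A match is a description of letters and was not tested as a binding site.

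The gamma subunits moved unevenly. PRKAG2 (ENSG00000106617.13, chromosome 7, 151556111 to 151877125, minus strand), which encodes gamma2, had 5.65, 5.04 and 5.68 FPKM with metformin and 4.13, 3.74 and 3.83 FPKM with PBS. All metformin libraries were above all PBS libraries. The means of 5.46 ± 0.363 FPKM and 3.90 ± 0.203 FPKM (SD, n = 3 each) gave a 1.40-fold rise with metformin, or 0.40 on the log2 scale (SE 0.08, limma adjusted p = 0.00432). The gene shares 84 exon bases with the antisense gene PRKAG2-AS1, which averaged 0.327 FPKM with metformin and 0.141 FPKM with PBS.

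PRKAG1 (ENSG00000181929.11, chromosome 12, 49002274 to 49018825, minus strand), which encodes gamma1, had 7.90, 11.1 and 8.91 FPKM with metformin and 7.84, 8.74 and 9.26 FPKM with PBS. The groups overlapped, and metformin replicate 2 was the highest of the 6 libraries. Its means were 9.30 ± 1.64 FPKM and 8.61 ± 0.715 FPKM (SD, n = 3 each), and the log2 change of 0.09 did not pass (95% interval -0.20 to 0.39, limma adjusted p = 0.558). Without metformin replicate 2 the change was -0.031.

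PRKAG3 (ENSG00000115592.11, chromosome 2, 218822383 to 218832086, minus strand), which encodes the gamma3 form known from skeletal muscle, was listed at 0, 0 and 0.0701 FPKM with metformin and at 0.0373, 0 and 0 FPKM with PBS, at most an estimated 2 fragments in a library. No difference could be read at this depth. Gamma1 was the more abundant gamma transcript, at 62.6 ± 5.48% of gamma FPKM with metformin and 68.7 ± 2.95% with PBS (SD, n = 3 each), and these shares overlapped between the groups (two-sided exact permutation p = 0.2).

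Summed over isoforms, the subunit classes moved apart. The alpha transcripts summed to 12.7, 11.6 and 11.7 FPKM with metformin and to 15.8, 15.5 and 16.2 FPKM with PBS. The beta transcripts summed to 23.6, 22.2 and 21.7 FPKM with metformin, against 10.7, 10.4 and 11.8 FPKM with PBS. The gamma transcripts summed to 13.6, 16.1 and 14.7 FPKM with metformin and to 12.0, 12.5 and 13.1 FPKM with PBS. In all 3 classes the groups did not overlap (two-sided exact permutation p = 0.1 for each, the smallest possible). With metformin beta was the most abundant class at 22.5 ± 0.982 FPKM, ahead of gamma at 14.8 ± 1.30 and alpha at 12.0 ± 0.596, whereas with PBS alpha led at 15.8 ± 0.354 FPKM, ahead of gamma at 12.5 ± 0.540 and beta at 10.99 ± 0.732 (SD, n = 3 each). The beta sum was 2.05-fold higher with metformin. The gamma sum was 2.26 FPKM higher, and 1.499 FPKM higher after median-of-ratios scaling, where the groups overlapped (exact permutation p = 0.2).

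**Figure D3:**
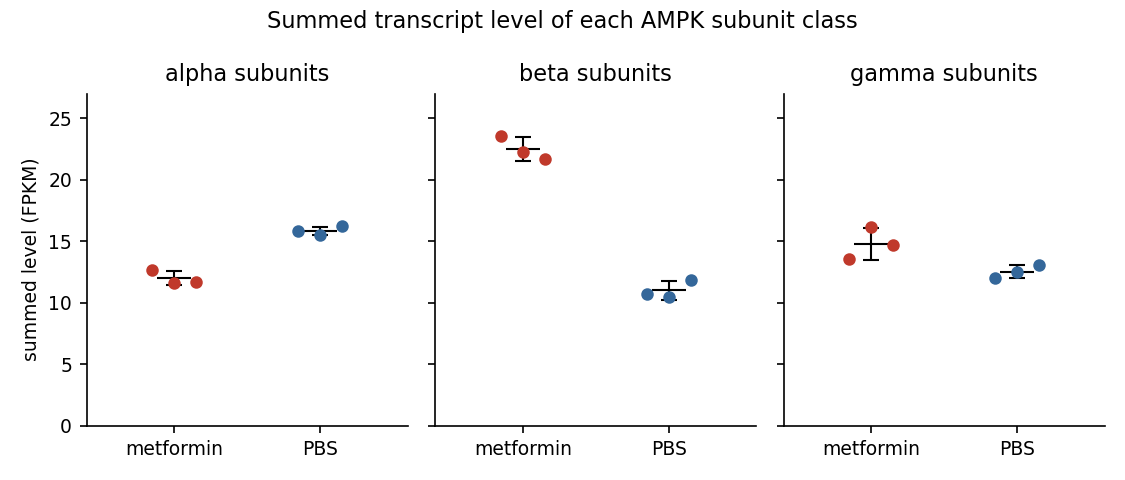
Summed level in FPKM of the alpha, beta and gamma subunit genes in the 3 metformin and 3 PBS libraries; points are libraries, bars are mean and SD. The beta sum lies between 21.7 and 23.6 FPKM with metformin and between 10.4 and 11.8 FPKM with PBS, while the alpha sum is lower with metformin in every library.

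Of the upstream kinases, CAMKK1 fell and the others did not pass. CAMKK1 (ENSG00000004660.14, chromosome 17, 3860315 to 3894891, minus strand), a calcium-calmodulin-dependent kinase kinase that acts on CaM kinases, had 1.24, 1.36 and 1.27 FPKM with metformin and 2.73, 2.69 and 2.77 FPKM with PBS. The libraries of each group lay close together and the groups were far apart. The means of 1.29 ± 0.0634 FPKM and 2.73 ± 0.0419 FPKM (SD, n = 3 each) gave a level 2.12-fold lower with metformin, or -0.70 on the log2 scale (SE 0.08, limma adjusted p = 0.000432). With a pseudocount of 0.01 FPKM in place of 1 the log2 change was -1.08. Reads from the short stretch shared with the more abundant PSME3 could be counted for either gene, and their part in the fall was not tested.

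CAMKK2 (ENSG00000110931.18, chromosome 12, 121237691 to 121298308, minus strand), which can phosphorylate AMPK, had 9.58, 9.31 and 10.4 FPKM with metformin and 8.62, 8.11 and 9.71 FPKM with PBS. The groups overlapped, and the log2 change of 0.13 did not pass (SE 0.08, 95% interval -0.06 to 0.33, limma adjusted p = 0.205). It was 0.083 without PBS replicate 2, 0.081 after quantile normalization and 0.063 after median-of-ratios scaling, and did not pass in any of these. CAMKK2 made up 88.3 ± 0.944% of the FPKM of the CAMKK pair with metformin and 76.3 ± 1.38% with PBS (SD, n = 3 each), without overlap (two-sided exact permutation p = 0.1, the smallest possible).

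STK11 (ENSG00000118046.14, chromosome 19, 1177558 to 1228435, plus strand), which encodes LKB1, the main AMPK activator under energy stress, was present in every library. It had 8.79, 8.11 and 8.16 FPKM with metformin and 9.52, 9.78 and 8.74 FPKM with PBS. The groups met at a single pair of libraries, metformin replicate 1 and PBS replicate 3. The means were 8.35 ± 0.381 FPKM and 9.35 ± 0.540 FPKM (SD, n = 3 each), and the log2 change of -0.15 did not pass (95% interval -0.31 to 0.02, limma adjusted p = 0.115). With median-of-ratios scaling it was -0.22 and passed (limma adjusted p = 0.0333), the only scaling of those run that changed the call of a member.

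**Figure D4:**
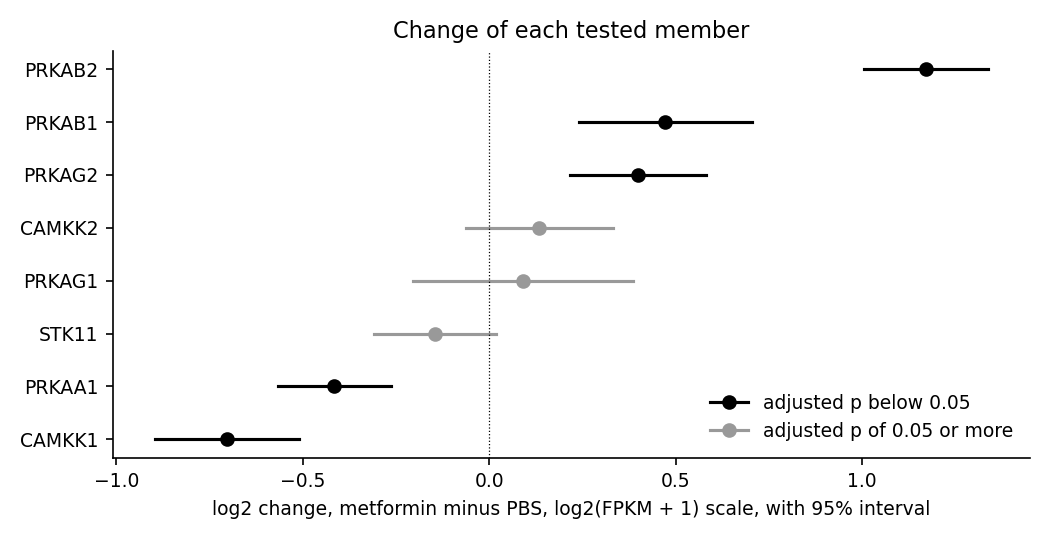
Log2 change of the 8 tested genes, metformin minus PBS of log2(FPKM + 1), with 95% intervals from limma; black marks an adjusted p below 0.05. PRKAB2 lies at 1.17 and CAMKK1 at -0.70, and the intervals of CAMKK2, PRKAG1 and STK11 include 0.

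In order of level with metformin, PRKAB2 was the highest at 15.9 FPKM, followed by PRKAA1, CAMKK2, PRKAG1, STK11, PRKAB1, PRKAG2, CAMKK1, PRKAA2 and PRKAG3. With PBS the order was PRKAA1 at 15.4 FPKM, then STK11, CAMKK2, PRKAG1, PRKAB2, PRKAB1, PRKAG2, CAMKK1, PRKAA2 and PRKAG3. The library ranges of PRKAG1 overlapped those of its neighbours CAMKK2 and STK11 in both groups, and STK11 and CAMKK2 overlapped with PBS but not with metformin. PRKAG1 in metformin replicate 2 also reached into the range of PRKAA1. PRKAB1 and PRKAG2 overlapped with PBS and were apart with metformin. PRKAB2 stood at the top with metformin and in the fifth place with PBS, the widest shift in the order.

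Levels across the 6 libraries were compared with 10732 other tested protein-coding genes, clone-based names left out, for likeness of pattern, as a description. PRKAB2 was most like SEL1L3 (Pearson r = 0.9993), NPAS2, a circadian transcription factor (r = 0.9991), and ELK4, an ETS-family transcription factor (r = 0.9991). ELK4 averaged 12.3 ± 0.797 FPKM with metformin and 5.04 ± 0.105 FPKM with PBS. CAMKK1 was most like NOP56 of the small nucleolar ribonucleoprotein (r = 0.9997), the tubulin TUBB4B (r = 0.9994) and the replication helicase subunit MCM6 (r = 0.9992). The 6 libraries fall into the treatment groups, so r mostly carries the group difference: 1703 genes had r above 0.95 with PRKAB2 and 1744 with CAMKK1.

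Other genes of the pathway were read from lists of 77 genes, of which 60 were tested. Of these, 21 were called higher and 17 lower, 63.3% in all against 56.2% of tested genes, with a median log2 change of 0.11 against 0.06 over all tested genes. The balance turned with scaling, to 17 higher and 20 lower after median-of-ratios scaling and 18 higher and 19 lower after quantile normalization. Of the partners of LKB1, 1 of 3 tested was higher and 0 lower, 33.3% called against 56.2% of all tested genes. CAB39L, a form of MO25, had 1.89 ± 0.255 FPKM with metformin and 0.704 ± 0.180 FPKM with PBS (log2 change 0.77, limma adjusted p = 0.00224). Its PBS libraries, at 0.848, 0.762 and 0.503 FPKM, were all under 1 FPKM. It therefore passed the level filter only through its metformin libraries, and its call, the 1 counted here, carries that limit. CAB39, the abundant form of MO25, had 29.7, 29.3 and 28.01 FPKM with metformin and 10.4, 23.7 and 24.3 FPKM with PBS. PBS replicate 1 lay far below the other PBS libraries, and the change of 0.64 did not pass with it (limma adjusted p = 0.106) but was 0.26 and passed without it (limma adjusted p = 0.0137). STRADA, the pseudokinase partner, lay under the level filter at 0.653, 0.398 and 0.789 FPKM with metformin and 1.08, 0.801 and 0.864 FPKM with PBS.

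Among other inputs to AMPK, 0 of 5 tested genes were higher and 2 lower, 40.0% called against 56.2% of all tested genes. CALM3, which encodes calmodulin, the calcium sensor that CAMKK2 needs, averaged 35.4 ± 1.93 FPKM with metformin and 76.4 ± 2.59 FPKM with PBS (2.15-fold lower), and shares 296 exon bases with the antisense gene AC093503.2, itself at 39.6 FPKM with metformin and 84.1 FPKM with PBS, so their reads may not be separable. CALM2, which encodes the same protein and was added after its values were seen, averaged 34.7 ± 3.07 FPKM with metformin and 36.96 ± 1.16 FPKM with PBS, with overlapping groups, and did not pass (limma adjusted p = 0.330). MAP3K7, the kinase TAK1, had 7.72 ± 0.488 FPKM with metformin and 8.28 ± 0.585 FPKM with PBS (limma adjusted p = 0.363). The sestrin SESN2, a stress-induced protein that acts on AMPK and mTORC1, rose most of all genes in these lists. It had 31.2, 33.5 and 33.99 FPKM with metformin and 3.53, 3.39 and 3.92 FPKM with PBS, 9.10-fold higher (log2 change 2.88, limma adjusted p = 1.78e-06). SESN1 did not pass, at 1.31 ± 0.280 FPKM with metformin and 1.68 ± 0.0741 FPKM with PBS.

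Of brakes and scaffolds of AMPK, 4 of 10 tested were higher and 2 lower, 60.0% called and so near the 56.2% of all tested genes. AXIN1, a scaffold that brings LKB1 to AMPK at the lysosome, averaged 14.1 ± 1.08 FPKM with metformin and 7.40 ± 0.417 FPKM with PBS (log2 change 0.85, limma adjusted p = 0.000150). FLCN, folliculin, and its partner FNIP1 were 1.81-fold and 1.68-fold higher. PPP2CA, a phosphatase catalytic subunit, was 1.13-fold higher, a call lost after median-of-ratios scaling (limma adjusted p = 0.0879). LAMTOR1, the lysosomal anchor, was 1.41-fold lower. MAGEA3, part of an AMPK ubiquitin ligase, was 1.69-fold lower, which is uncertain since reads could be shared with the near-identical MAGEA6.

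Of AMPK-related kinases that LKB1 activates, 3 of 9 tested were higher and 1 lower, 44.4% called against 56.2% of all tested genes, and the higher ones were the salt-inducible kinases. SIK2 had 3.39 ± 0.279 FPKM with metformin and 2.17 ± 0.0434 FPKM with PBS (1.56-fold, limma adjusted p = 0.00295), and SIK1 was 1.44-fold higher. SIK3 was 1.47-fold higher (limma adjusted p = 0.0230), and its call was lost without any 1 of the metformin libraries (adjusted p = 0.0529 to 0.0663). MARK2 was 1.18-fold lower (limma adjusted p = 0.0280), a call lost when metformin replicate 1 or 2 or PBS replicate 2 or 3 was left out (adjusted p = 0.0652 to 0.0830). MELK, a relative that is not an LKB1 substrate and is known from dividing cells, was 1.46-fold lower, at 22.3 ± 1.503 FPKM with metformin and 32.6 ± 0.487 FPKM with PBS.

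Of known AMPK substrates, 12 of 23 tested were higher and 7 lower, 82.6% called against 56.2% of all tested genes. TXNIP, an arrestin-like brake on glucose uptake, was 3.90-fold higher at 172 ± 6.49 FPKM with metformin and 44.0 ± 2.69 FPKM with PBS. GFPT1, which opens the hexosamine pathway, was 3.19-fold higher, and the transcription factor genes NFE2L2 and FOXO3 were 2.61-fold and 2.42-fold higher. SREBF1, a regulator of lipid synthesis, and GYS1, muscle-type glycogen synthase, were 2.64-fold and 2.55-fold lower. NFE2L2 shares 190 exon bases with the antisense gene AC079305.1 and SREBF1 shares 556 with RAI1, so reads of these pairs may not be separable either. Chosen after their values were seen, ULK1, the kinase that starts autophagy, was 1.87-fold higher, and ACACA, acetyl-CoA carboxylase, the classic substrate, was 1.46-fold lower.

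Genes named as adenylate kinases were lower in 4 of 5 tested and higher in 0, against 25.2% and 31.0% of all tested genes. AK4 averaged 11.8 ± 0.745 FPKM with metformin and 21.5 ± 1.14 FPKM with PBS (1.83-fold lower, limma adjusted p = 0.000114), AK3 was 1.78-fold lower and AK1, which shares 894 exon bases with AL157935.2 on the same strand, 1.31-fold lower. Of 8 metformin transporter genes 2 were tested and none passed (0 called by limma, and 0 at an unadjusted p under 0.05).

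**Figure D5:**
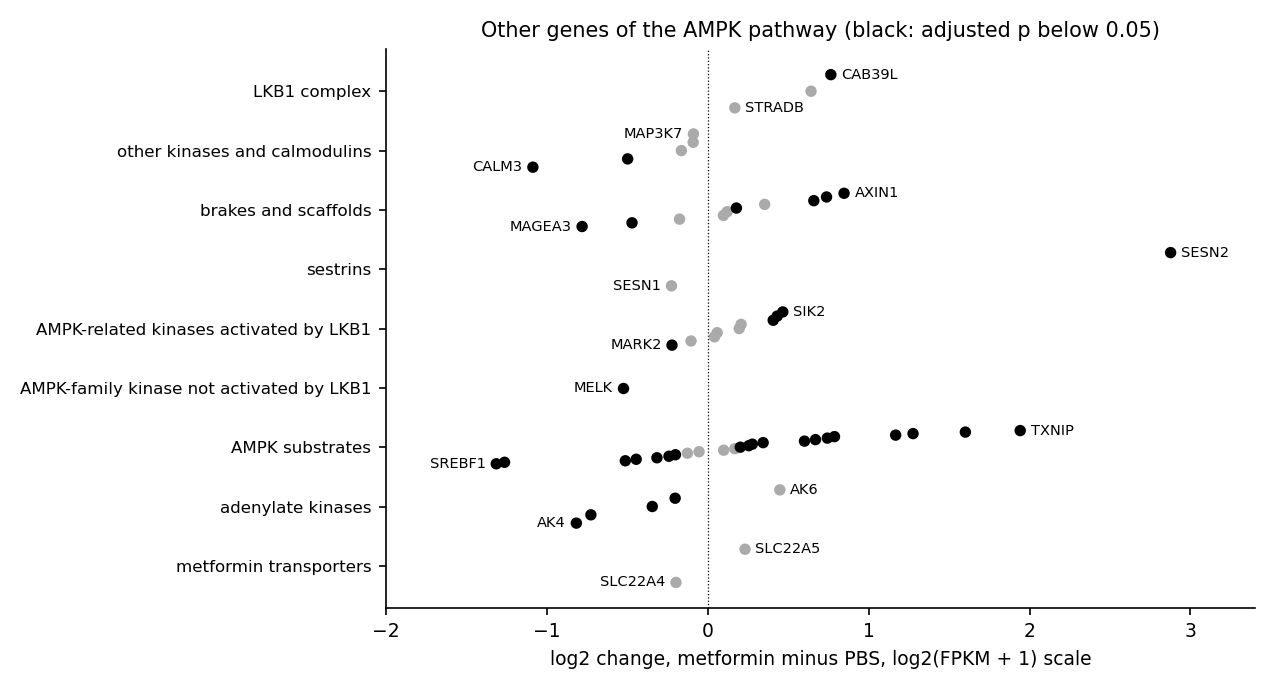
Log2 change, metformin minus PBS of log2(FPKM + 1), of the 60 tested genes of the wider AMPK pathway by list; each point is a gene, black where the adjusted p was below 0.05, and the outermost genes of each list are named. SESN2 stands at 2.88, TXNIP at 1.94, CALM3 at -1.09 and SREBF1 at -1.31.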

How the data were processed

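Gene levels were deposited by the authors as FPKM, 1 column in each library's file, per the file headers. The genome build was GRCh38, per the submitters' processing notes. For the aligner, quantifier, strand setting and annotation release the entry is: not given in the sources used here. Symbols, coordinates and exons came from GENCODE 29 by identifier without version, which named 57980 of 58243. All 37 mitochondrial DNA genes were listed at 0 throughout, so a listed 0 is not read as absence. FPKM depends on all other genes of a library.

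The 13437 genes averaging 1 FPKM or more over the 6 libraries were fitted as log2(FPKM + 1) with limma 3.58.1 in R 4.3.3 (trend, group only), two-sided, with Benjamini-Hochberg adjustment over all of them. The fit was also run on simulated data in which far fewer genes changed than were called here, so that run cannot speak for the scaling. Shares and sums of isoforms were compared by exact permutation tests over libraries (SciPy 1.17.1). Depth, and fragments per gene, were estimated from the spacing of low values in genes with a single transcript, and are approximate. Exon overlaps were found with BEDTools 2.31.1.

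The members and lists were chosen with earlier results of these data known. All members are named, with up to 6 called genes per list of largest change, STRADA, CAB39 and MAP3K7, and the 3 genes most like PRKAB2 and CAMKK1. Some genes that this rule selects are not reported here. Alternatives were other pseudocounts, filters, scalings, a replicate block, limma without trend or with a robust prior, protein-coding genes alone, and each library left out.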

Additional observations from a re-analysis of the deposited data

How the results depend on the processing

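Each of the 5 called members, PRKAB2, PRKAB1, PRKAG2, PRKAA1 and CAMKK1, kept its direction and its call under every alternative in which it was tested. Requiring a mean of at least 5 FPKM removed PRKAG2 and CAMKK1 from the test, so 3 members were called there, and 4738 genes in all against 7549. With a library left out, the log2 change of PRKAG1 ranged from -0.031, without metformin replicate 2, to 0.19, without metformin replicate 1. The gamma1 share difference of -6.08 percentage points ranged from -9.16 without metformin replicate 2 to -3.93 without metformin replicate 1. Same-numbered libraries showed no shared deviation (correlations of 0.030 at most), which does not tell whether they were set up together. The fit with the replicate block called 7139 genes, 5 members and 36 pathway genes. Among named pathway genes the block ended the call of MARK2 (limma adjusted p = 0.0542), no filter that of SIK3 (0.0561), and quantile normalization that of SIK3 (0.0843), while it called SESN1 lower (0.0387). Median-of-ratios scaling moved the median log2 change of all tested genes by -0.065, and 32 to 36 pathway genes were called with 1 library left out, against 38 with all. Depth limits PRKAG3 and PRKAA2, and with 3 libraries a group no exact test of shares or sums can pass 0.05.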
